A study of Rattus norvegicus with 24 samples.

Results

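The genes described here build and maintain cilia. They are every row of the deposited count tables whose symbol begins with Dnah, Dnai, Dnal, Tekt, Rsph, Spef or Cfap, or with Ift followed by a digit. The rule found 27 genes among the 14073 rows of the female table and the same 27 among the 14077 rows of the male table. There were 17 axonemal genes, which encode the moving machinery of the cilium, and 10 Ift genes, which encode the transport machinery. Foxj1 was not analysed here, and genes now named with the Cfap prefix were read only under older symbols, outside the 27 members. All 27 genes passed the filter on low counts in every comparison.

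Whole hypothalami of Sprague Dawley rats were taken at postnatal day 10 and profiled by RNA-seq, 1 library per sample. Dams ate a control diet with 12% of digestible energy from lipids or a high fat diet with 43%, from before mating until collection, and their pups are called CON-O and HFD-O. Each combination of sex and maternal diet had 6 libraries, and the 24 libraries keep their numbers here, odd for males. Libraries held 6132112 to 7994399 counted reads. Whole tissue was used, so fewer cells of a type and less RNA per cell cannot be told apart, and the labels do not mark which pups shared a litter, so p-values measure the spread between these samples. The study's methods give fewer litters than libraries for each diet, so some libraries must share a litter, and every test treats them as independent.

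A motile cilium beats because dynein arms on its outer doublet microtubules pull against the neighbouring doublet. Radial spokes and the central apparatus set the timing of the beat, and tektins line the doublets. In the hypothalamus these structures are carried by the ependymal cells that line the third ventricle. Intraflagellar transport, by contrast, carries cargo along every cilium, and neurons and glia use it for the single immotile primary cilium that holds many receptors.

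Several axonemal genes and Ift43 had higher mean levels in HFD-O than in CON-O of both sexes, but no member passed the test after adjustment over all genes. Tekt4 and Tekt3, both tektins, were 0.40 ± 0.11 and 0.45 ± 0.17 higher on the log2 scale in HFD-O over both sexes (SE, 12 libraries a diet). Ift43, a subunit of the retrograde transport complex IFT-A, was 0.33 ± 0.11 higher. Ift88, a core subunit of the anterograde complex IFT-B, was lower in HFD-O, at -0.13 ± 0.06, an unadjusted p under 0.05 that did not pass adjustment. Ift57, also of IFT-B, was higher by about as much, at 0.12 ± 0.05, and the other 7 Ift genes had differences of -0.0090 to 0.096. Over all 24 libraries, counting error included, the highest was a median of 2.67 times the lowest for axonemal genes and 1.46 times for Ift genes. A single male CON-O library, CON-O 11, was the lowest of all 24 for 10 of the 17 axonemal genes.

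Of the 27 genes, the tektins Tekt3 and Tekt4 had the largest estimates over both sexes, while in females Ift43 had the largest and in males Spef2 lay between them. Tekt4 had 3.29, 4.13 and 4.71 CPM (counts scaled by library total and TMM factor; lowest, median and highest of 6) in female CON-O and 3.70, 5.38 and 6.59 CPM in female HFD-O. In males it had 3.17, 4.54 and 5.75 CPM in CON-O and 5.19, 6.27 and 7.25 CPM in HFD-O. The groups overlapped in both sexes, although 4 of 6 HFD-O libraries lay above every CON-O library of their sex in females and likewise 4 of 6 in males. The log2 difference was 0.37 ± 0.16 in females and 0.42 ± 0.15 in males (SE). The exact two-sided permutation test over libraries, not adjusted for the number of genes, gave p = 0.0433 in females and p = 0.0108 in males. Tekt4 was named for its small p in these same data, so these p-values add no separate support. Over both sexes edgeR's quasi-likelihood test, with Benjamini-Hochberg adjustment over all genes, gave an adjusted p = 0.118. Tekt4 was counted 21 to 59 times per library.

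Tekt3 was lower still, with 5 to 27 reads per library. It had 1.095, 2.08 and 2.43 CPM in female CON-O against 1.72, 2.28 and 3.68 CPM in female HFD-O. In males the values were 0.754, 1.65 and 2.52 CPM in CON-O and 1.88, 2.56 and 3.32 CPM in HFD-O. All 6 male HFD-O libraries lay above the male CON-O median, and 3 of them lay above every male CON-O library. The log2 difference was 0.34 ± 0.23 in females and 0.56 ± 0.25 in males, and edgeR gave an adjusted p = 0.259 over both sexes. The remaining tektins showed no common direction. Tekt1 had group means of 22.2 ± 2.4 and 22.4 ± 3.6 CPM in female CON-O and HFD-O, and 20.6 ± 3.2 and 24.1 ± 4.5 CPM in males (SD, n = 6). Tekt2 had 14.9 ± 2.6 and 13.6 ± 1.2 CPM in females and 14.2 ± 3.4 and 16.0 ± 1.0 CPM in males. Its log2 difference was thus -0.13 ± 0.11 in females and 0.18 ± 0.14 in males, and the test of that difference between the sexes did not pass (edgeR adjusted p = 1.0). Tekt5, which is known mainly from sperm, was measured at 1.095 to 2.97 CPM and its log2 difference was -0.13 ± 0.14 over both sexes.

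**Figure D1:**
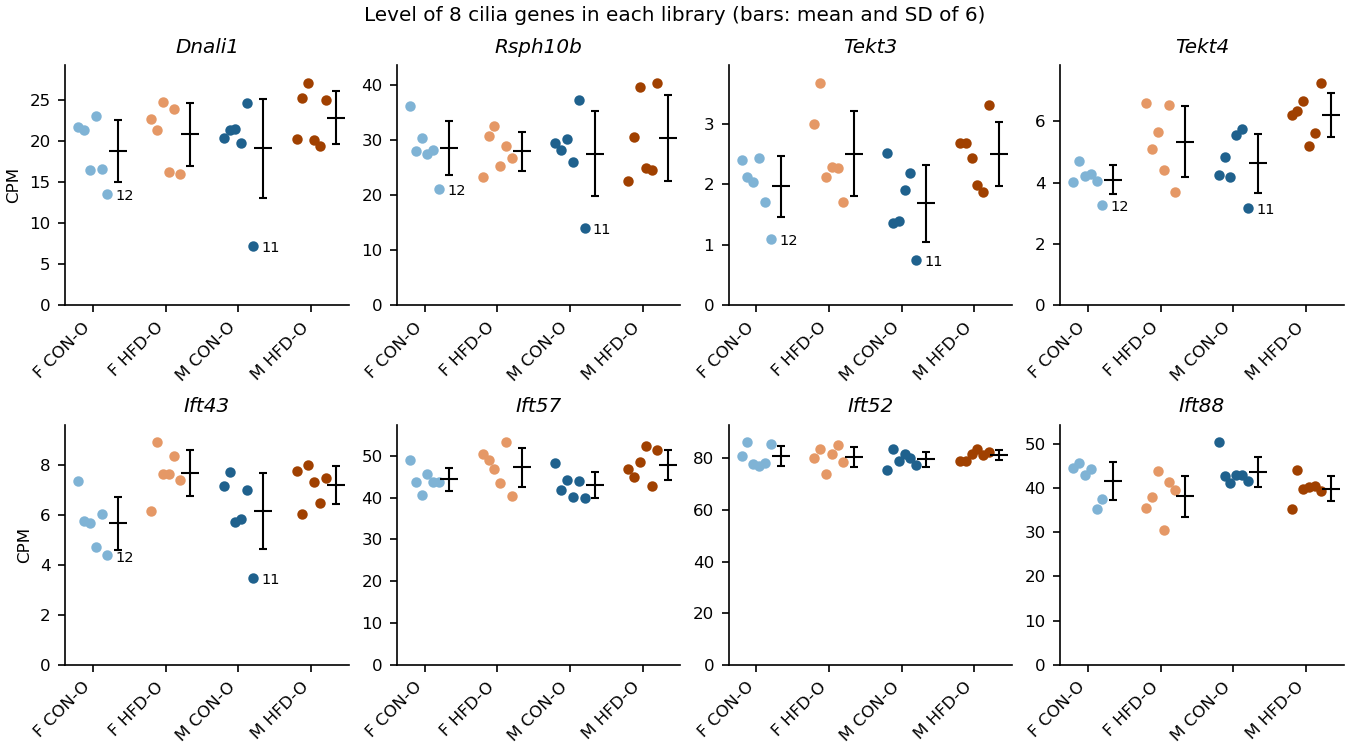
Level in CPM (vertical axis, from 0) of 8 members in each of the 24 libraries, with 1 point per library by sex (F, M) and maternal diet, and black bars for the mean and SD of 6. CON-O 11 and CON-O 12 are numbered in the first 5 panels, where CON-O 11 is the lowest point of its group. Ift52 sits between 74.0 and 86.3 CPM in every library.

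Among the dynein genes, Dnai1, an outer arm intermediate chain, was the one whose difference was largest relative to its error. Dnai1 had 5.77, 7.63 and 11.4 CPM in female CON-O and 8.45, 9.46 and 11.3 CPM in female HFD-O. Its male values were 5.88, 8.98 and 9.86 CPM in CON-O and 8.39, 11.1 and 12.0 CPM in HFD-O. The female groups overlapped across most of their range, while 4 of 6 male HFD-O libraries lay above every male CON-O library. The difference was 0.28 ± 0.10 on the log2 scale over both sexes (edgeR adjusted p = 0.245). Dnah1, an inner arm heavy chain, had 10.6, 16.7 and 29.8 CPM in female CON-O and 14.5, 20.5 and 28.2 CPM in female HFD-O, and in males 10.3, 21.8 and 23.8 CPM in CON-O and 14.6, 22.5 and 26.9 CPM in HFD-O, with wide overlap in both sexes. Dnali1, an inner arm light intermediate chain, had 7.23, 20.9 and 24.6 CPM in male CON-O and 19.5, 22.7 and 27.1 CPM in male HFD-O. The female values of Dnali1 ran from 13.6 to 23.1 CPM in CON-O and from 16.0 to 24.8 CPM in HFD-O. The log2 differences over both sexes were 0.16 ± 0.14 for Dnah1 and 0.20 ± 0.13 for Dnali1. That of Dnah1 was 0.095 without CON-O 11, 0.10 without CON-O 12 and 0.26 without CON-O 8, and that of Dnali1 was 0.12 without CON-O 11. Dnal4, annotated as an axonemal dynein light chain, was level, with group means of 20.5 to 22.0 CPM and a log2 difference of 0.036 ± 0.059. Dnai2 and Dnal1, the outer arm genes not named by the rule for examples, had log2 differences of 0.095 ± 0.141 and -0.12 ± 0.12.

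The radial spoke and central apparatus genes divided in the same way between variable and level. Rsph10b, a radial spoke gene, had 21.1, 28.2 and 36.2 CPM in female CON-O and 23.4, 27.9 and 32.7 CPM in female HFD-O. In males it had 14.0, 28.9 and 37.4 CPM in CON-O and 22.6, 27.7 and 40.4 CPM in HFD-O, and its log2 difference over both sexes was 0.056 ± 0.119. Rsph9, a radial spoke head gene, had group means of only 46.6 to 48.0 CPM, and its log2 difference over both sexes was -0.0084 ± 0.0512. Spef1, which binds microtubules of the central apparatus, was as level, with means of 22.5 to 23.2 CPM and a log2 difference of -0.023 ± 0.061. Spef2, a central apparatus gene best known from sperm flagella, had 2.41, 5.56 and 7.80 CPM in male CON-O and 5.34, 7.99 and 9.36 CPM in male HFD-O, with 4 of 6 HFD-O libraries above every CON-O library. Its log2 difference was 0.47 ± 0.22 in males and 0.076 ± 0.192 in females. The male minus female difference of the 2 was 0.40 ± 0.30 (edgeR adjusted p = 1.0). Rsph1, another radial spoke head gene, is added to these after its values were seen: its log2 difference was 0.23 ± 0.11 over both sexes (edgeR adjusted p = 0.378).

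The Ift genes were the steadier class, with Ift43 and Ift57 higher in HFD-O by the most relative to their error. Ift43 had 4.38, 5.73 and 7.37 CPM in female CON-O and 6.14, 7.65 and 8.91 CPM in female HFD-O, and 5 of 6 female HFD-O libraries lay above every female CON-O library. In males the values were 3.47, 6.41 and 7.72 CPM in CON-O and 6.05, 7.41 and 8.00 CPM in HFD-O, with wide overlap. The log2 difference was 0.44 ± 0.14 in females (edgeR adjusted p = 0.445, exact permutation p = 0.00433, the latter not adjusted). In males it was 0.22 ± 0.16 (exact permutation p = 0.162). Over both sexes edgeR gave an adjusted p = 0.186. Ift57, a peripheral IFT-B subunit, had 40.5, 43.8 and 49.1 CPM in female CON-O and 40.4, 48.0 and 53.3 CPM in female HFD-O. In males it had 39.9, 42.9 and 48.2 CPM in CON-O and 42.9, 47.7 and 52.4 CPM in HFD-O. All 6 male HFD-O libraries lay above the male CON-O median, and 3 of them above every male CON-O library (exact permutation p = 0.0411, and 0.253 in females). Its log2 difference was 0.12 ± 0.05 over both sexes (edgeR adjusted p = 0.279).

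Ift88 pointed the other way in both sexes. It had 35.2, 43.7 and 45.7 CPM in female CON-O and 30.6, 38.8 and 43.9 CPM in female HFD-O. In males it had 41.1, 42.9 and 50.5 CPM in CON-O and 35.3, 40.1 and 44.1 CPM in HFD-O, and 5 of 6 male HFD-O libraries lay below every male CON-O library. The exact permutation test gave p = 0.0390 in males and p = 0.208 in females. Over both sexes edgeR gave an adjusted p = 0.330. Ift52, Ift81 and Ift74 are further IFT-B core subunits, the last 2 of which bind tubulin as cargo. Ift52 had group means of 79.7 to 81.3 CPM and a log2 difference of 0.011 ± 0.030. Ift81 had means of 64.3 to 69.4 CPM (0.065 ± 0.046 on the log2 scale) and Ift74 means of 30.6 to 33.1 CPM (0.088 ± 0.058). Ift80, a peripheral IFT-B subunit, had means of 25.05 to 28.01 CPM and a log2 difference of 0.096 ± 0.071. The Ift genes not named so far, Ift20, Ift27 and Ift46, had log2 differences of -0.0090 to 0.049.

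**Figure D2:**
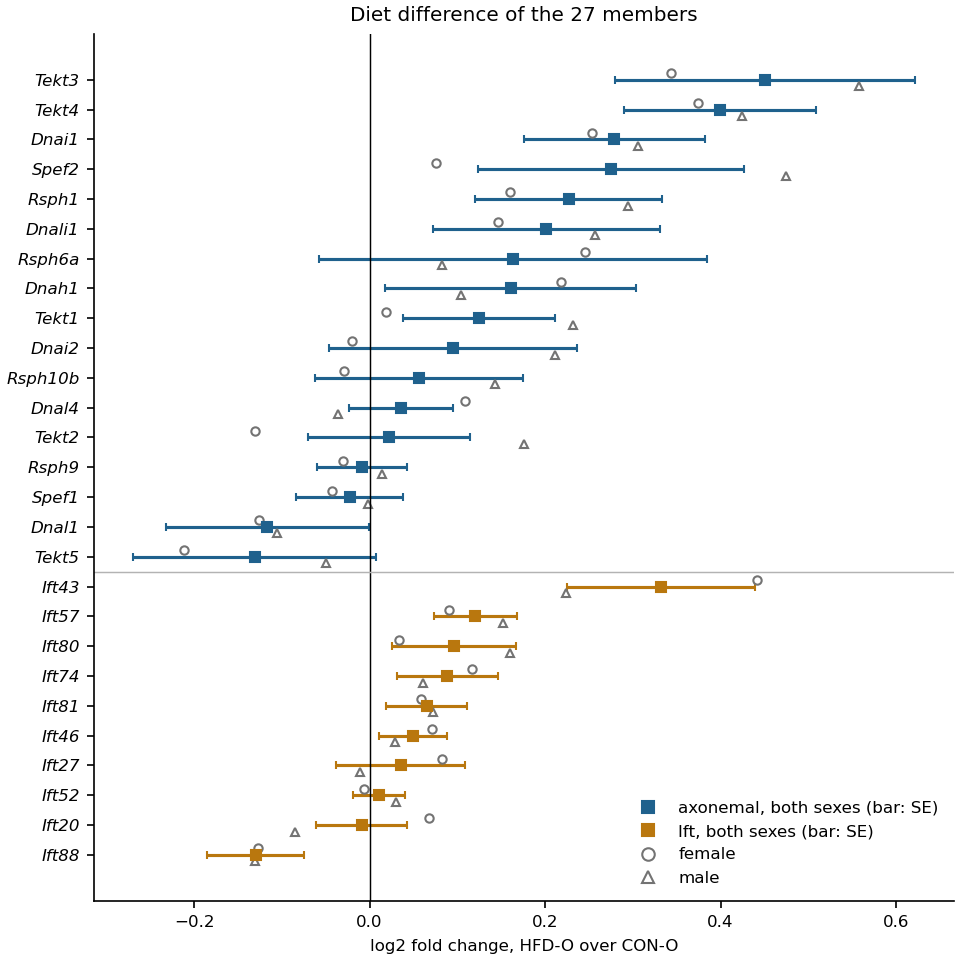
Log2 fold change of HFD-O over CON-O (horizontal axis) for the 27 members, axonemal above and Ift below the line. Squares with bars are the estimate over both sexes with its SE, circles females and triangles males. Tekt3 and Tekt4 lie furthest right and Ift52 lies at 0.011.

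Counted together, 0 of 27 members passed an adj.P-value of 0.05 in females, in males, over both sexes or for the difference between the sexes, with edgeR's quasi-likelihood and likelihood ratio tests, DESeq2 and limma-voom alike. Among all genes tested, the quasi-likelihood test passed 0% in females, 0% in males, 0.189% over both sexes and 0% for the sex difference. The shares of all genes under the other tests are not given here. The study's own edgeR analysis of these libraries did report genes at this cut-off in each sex, so the 0% belongs to the test used here. At an unadjusted p under 0.05, 2 members were higher and 0 lower in female HFD-O, beside 4.51% of all genes higher and 2.58% lower. In males 5 members were higher and 0 lower, beside 2.76% and 2.17% of all genes. Over both sexes 6 members were higher (Tekt4, Dnai1, Tekt3, Rsph1, Ift43, Ift57) and 1 lower (Ift88), beside 7.26% and 5.44% of all genes. For the sex difference it was 0 and 0, beside 0.85% and 0.687%.

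By class, 13 of 17 axonemal genes and 8 of 10 Ift genes had a higher estimate in HFD-O over both sexes, against 49.3% of all genes. The median log2 difference was 0.12 for the axonemal genes, 0.057 for the Ift genes and -0.0013 for all genes tested. In females the axonemal and Ift medians were 0.076 and 0.069, and in males 0.18 and 0.046. The axonemal medians depended on few libraries: the female median was -0.0022 without CON-O 6 and -0.00011 without CON-O 12, the male median was 0.092 without CON-O 11, and the median over both sexes was 0.039 without CON-O 11 and CON-O 12, where the Ift median was 0.041. Without those 2 libraries 6 members had an unadjusted p under 0.05, and the log2 difference was 0.33 for Tekt4 and 0.24 for Ift43. The male count of members with an unadjusted p under 0.05 was 1 when CON-O 11, HFD-O 17 or HFD-O 23 was left out, 2 when CON-O 3 or HFD-O 13 was, and 3 when CON-O 7 was. The female count was 1 when CON-O 10, CON-O 12, HFD-O 14, HFD-O 18 or HFD-O 22 was left out.

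Axonemal genes also varied more than Ift genes between libraries of the same group, which is given as a description with no test. The coefficient of variation within groups, after subtraction of the part that counting alone gives, had a median of 13.4% over the 17 axonemal genes and 7.31% over the 10 Ift genes, beside 7.41% over all genes with a mean of at least 10 counts. It exceeded 10% in 12 of 17 axonemal genes and in 1 of 10 Ift genes, Ift27. Over all 24 libraries of the 4 groups, the highest was a median of 2.67 times the lowest for axonemal genes (range 1.35 to 4.90). For Ift genes it was 1.46 times (range 1.17 to 2.57). These ratios include counting error, which is larger for genes with few reads. Rsph6a, a testis-type radial spoke gene with 8 to 34 reads per library, had the widest spread at 34.3%, followed by Dnah1 at 25.4% and Spef2 at 21.6%. Ift52 and Tekt5 showed 0% above counting error. Levels were not compared between genes, because transcript lengths were not used.

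**Figure D3:**
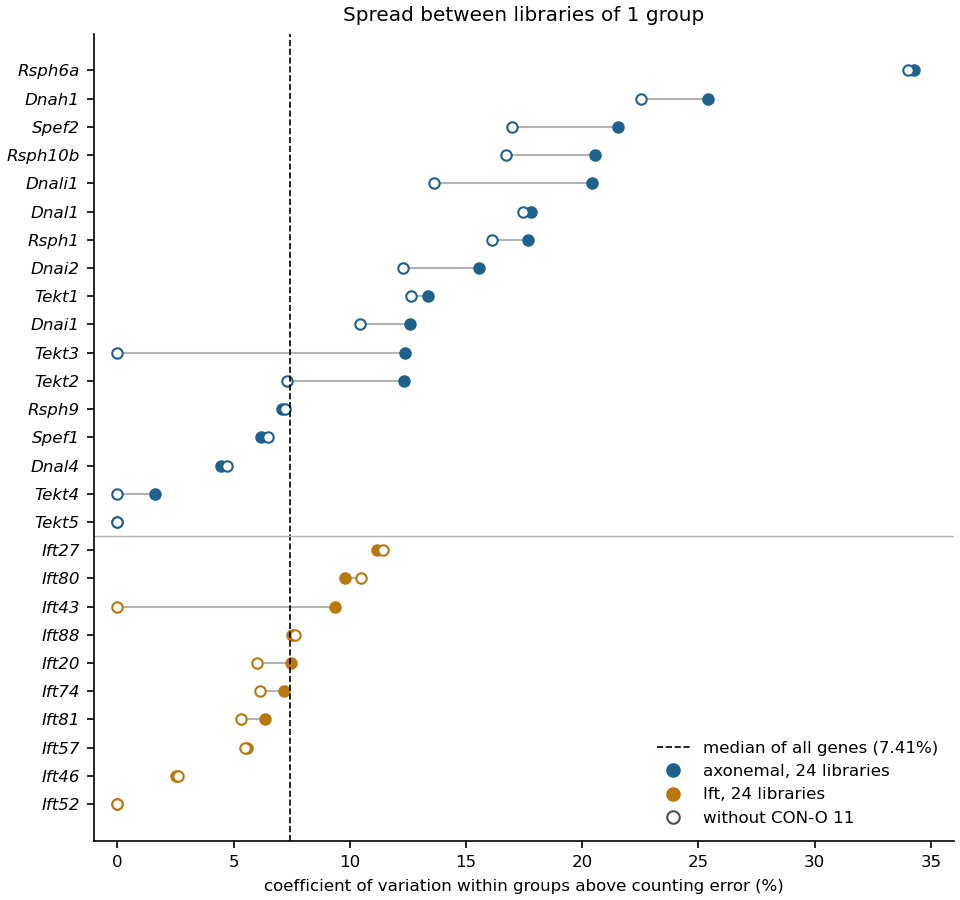
Coefficient of variation between libraries of 1 group above counting error (horizontal axis, percent), 1 row per member, axonemal above and Ift below the line. Filled circles use 24 libraries, open circles leave out CON-O 11, and the dashed line is the median of all genes at 7.41%. Dnali1 and Tekt3 move furthest left without that library among the axonemal genes, and Ift43 among the Ift genes.

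Male CON-O 11 stood apart for most axonemal genes, and without it the class medians of the spread were 12.3% and 5.75%. It was the lowest of all 24 libraries for 10 of 17 axonemal genes and 3 of 10 Ift genes, beside 7.35% of all genes. It lay below every other male CON-O library for 11 axonemal and 4 Ift genes, beside 22.6% of all genes. It lay above them all for 1 axonemal and 1 Ift gene, beside 24.2% of all genes. Its TMM factor, 0.978, was the lowest of the 24. Dnali1 had 7.23 CPM in CON-O 11 against 19.8 to 24.6 CPM in the other male CON-O libraries. Spef2 had 2.41 against 4.70 to 7.80 CPM, Rsph10b 14.0 against 26.1 to 37.4 CPM, and Tekt2 8.29 against 12.5 to 17.4 CPM. These levels are 33.9% to 53.5% of the median of the other male CON-O libraries. Some axonemal genes did not share the low level: Spef1 was at 99.2%, Rsph9 at 103% and Rsph6a at 244% of that median. Ift52 was at 96.4% and Ift81 at 83.7%, whereas Ift43 was at 49.6%. Female CON-O 12 was among the lowest 2 of 24 libraries for 6 axonemal genes and 2 Ift genes, and the share of all genes was not computed for it.

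Summed over the 17 axonemal genes, CON-O 11 had 188.7 CPM and CON-O 12 had 214.3 CPM, and the other 22 libraries had 235.1 to 306.0 CPM. The 10 Ift genes summed to 413.8 CPM in CON-O 11, near the low end of the range of 413.3 to 475.1 CPM of all libraries. The lists of other transport, motor and BBSome genes and of primary cilium signalling genes had their lowest sums of all 24 libraries in CON-O 11, at 1784 and 1727 CPM. Tanycyte markers had their highest sum of all 24 there, 1386 CPM, and were at 1234 CPM in CON-O 12, the highest female CON-O. A list of 63 other motile cilia genes gave 603.7 CPM in CON-O 11 and 715.7 CPM in CON-O 12, their groups' lowest. In the same libraries a list of 15 ependymal genes was at its group's highest sum, 3660 CPM in CON-O 11 and 3439 CPM in CON-O 12. That list holds genes that astrocytes also express, such as Aqp4, Gja1, S100b, Clu and Vim, and 1 gene that is also on the list of other motile cilia genes, Dynlrb2, without which the sums were 3654 and 3429 CPM. Leptomeningeal markers summed to 354.6 CPM in CON-O 11, the lowest of its group. Choroid plexus markers were highest of their group in CON-O 12, where Ttr, the plexus transport protein for thyroid hormone, was at 18.0 CPM and no higher than 0.754 CPM in the other 23 libraries. That rank rests on Ttr: without it the sum was 279.6 CPM in CON-O 12 and 289.2 CPM in CON-O 4. The part of these values in the low axonemal level was not tested.

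**Figure D4:**
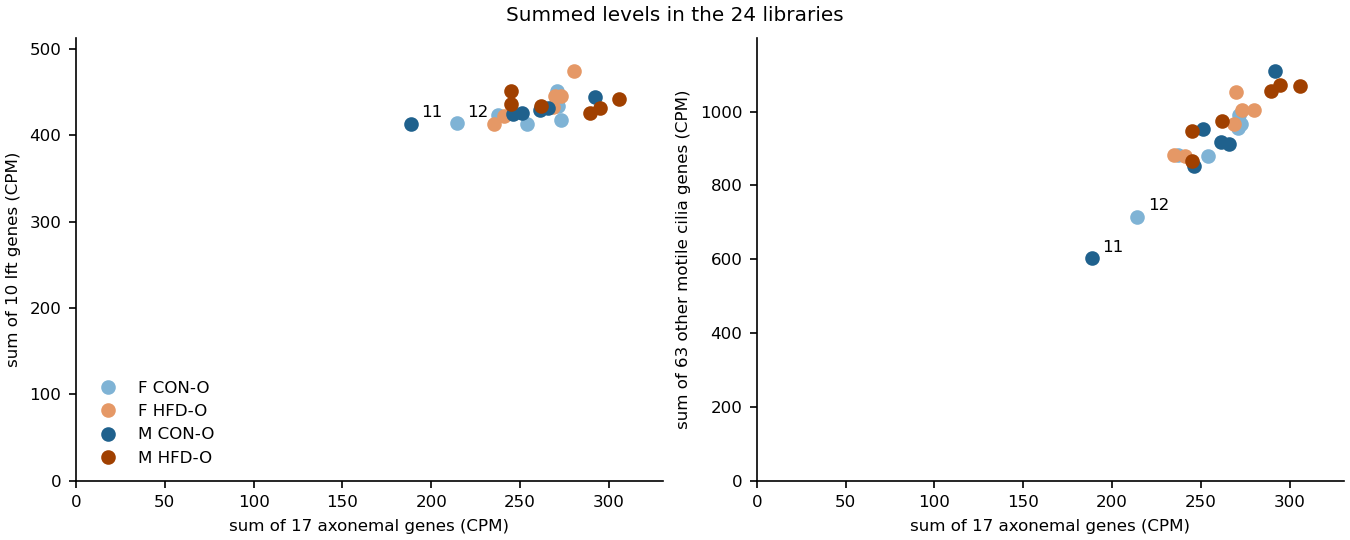
Summed CPM of the 17 axonemal genes (horizontal axes) against that of the 10 Ift genes (left) and of 63 other motile cilia genes (right), 1 point per library, coloured by sex and diet. CON-O 11 at 188.7 CPM and CON-O 12 at 214.3 CPM lie apart on the horizontal axis, while on the left their Ift sums, 413.8 and 414.4 CPM, are at the low end of the other libraries.

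Ccdc153, a motile cilia gene marking ependymal cells, was chosen after its values were seen to ask which members followed the same libraries. It had 13.7, 30.4 and 37.0 CPM in male CON-O and 21.8, 26.2 and 34.8 CPM in female CON-O, with CON-O 11 and CON-O 12 lowest. After levels were centred within the 4 groups, 9 of 17 axonemal genes and 3 of 10 Ift genes followed Ccdc153 over 24 libraries at an adjusted permutation p under 0.05, of 27 correlations computed. The share of all genes that would pass was not computed, so these counts are not shown to be particular to cilia genes. Dnali1 gave Pearson's r = 0.849 (permutation p = 0.00029, adjusted p = 0.00261) and Spearman's rho = 0.663 (permutation p = 0.00158, adjusted p = 0.00945). Tekt2 gave r = 0.796 (permutation p = 0.00221, adjusted p = 0.00852) and rho = 0.640 (permutation p = 0.00375, adjusted p = 0.0138). Ift43 was the Ift gene with the highest r, 0.763 (permutation p = 0.00254, adjusted p = 0.00857), with rho = 0.658 (permutation p = 0.00175, adjusted p = 0.00945). Ift52 gave r = 0.259 (permutation p = 0.234, adjusted p = 0.306) and rho = 0.271 (permutation p = 0.239, adjusted p = 0.307). Without the 2 libraries farthest from the Ccdc153 median, CON-O 11 and CON-O 12, r was 0.626 for Dnali1, 0.572 for Tekt2, 0.505 for Ift43 and 0.368 for Ift52. These r values kept group means that include the 2 libraries, so they are not free of them. The test without the 2 libraries centred levels anew on the libraries kept. In it 0 of 27 members passed, so the calls rest on CON-O 11 and CON-O 12.

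Promoters were searched for the letters bound by RFX factors, which are known regulators of both motile and primary cilium genes. RefSeq promoters of build GRCr8 were matched to 22 of 27 members (15 axonemal, 7 Ift), each running from 250 bases before to 50 after the gene start. The half-site GTTGCC, on either strand, was in 9 of 22 member promoters, 5 axonemal and 4 Ift, and in 12.2% of all 33469 promoters of the same length. The 6 members whose half-site begins within 80 bases before the start are shown, and Spef2, Ift20 and Ift27, where it lies after the start or further away, are not. Bases -80 to 20 around the start are printed 5′ to 3′, with half-sites in capitals, and with GTTGC and GCAAC also in capitals where they lie 2 to 5 bases apart.
Tekt1 (chr10:57479102-57479201, minus strand): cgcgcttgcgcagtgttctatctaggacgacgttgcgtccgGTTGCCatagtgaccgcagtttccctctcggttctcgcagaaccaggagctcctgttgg
Tekt2 (chr5:143907705-143907804, minus strand): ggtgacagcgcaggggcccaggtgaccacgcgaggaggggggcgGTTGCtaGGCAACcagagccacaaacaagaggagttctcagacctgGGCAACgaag
Tekt4 (chr10:14992204-14992303, plus strand): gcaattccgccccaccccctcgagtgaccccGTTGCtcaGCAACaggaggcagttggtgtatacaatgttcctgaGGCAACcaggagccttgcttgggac
Dnai2 (chr10:100258942-100259041, plus strand): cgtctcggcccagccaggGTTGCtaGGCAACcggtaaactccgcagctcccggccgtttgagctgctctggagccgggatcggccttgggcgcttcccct
Ift81 (chr12:39618542-39618641, plus strand): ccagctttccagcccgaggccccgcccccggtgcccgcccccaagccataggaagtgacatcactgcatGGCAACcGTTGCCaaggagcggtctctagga
Ift88 (chr15:35688907-35689006, plus strand): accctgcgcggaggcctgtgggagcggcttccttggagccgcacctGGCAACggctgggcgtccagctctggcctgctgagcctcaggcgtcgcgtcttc
GTTGC followed 2 to 5 bases later by GCAAC, a pair chosen after the sequences were seen, was in Tekt2, Tekt4 and Dnai2 and in 0.511% of all promoters, in 3 of 15 axonemal and 0 of 7 Ift promoters. The pair searched first, GTTNCC followed 0 to 3 bases later by GGNAAC, was in 0 of 22 member promoters and 0.902% of all. The opposite order, as in GGCAACcGTTGCC of Ift81 above, was not counted. The forkhead letters GTAAACA, on either strand, were in Dnali1, Spef2 and Tekt3 and in 3.78% of all promoters. A match of letters is a description and no measured site.

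Genes of the same pathways outside the rule were read for comparison. Of 58 other motile cilia genes tested, 51 had a higher estimate in HFD-O over both sexes and 12 had an unadjusted p under 0.05, all 12 higher, with 0 at an adj.P-value of 0.05. Examples chosen after their values were seen were Spag6, a central apparatus gene, with a log2 difference of 0.30 ± 0.11 (edgeR adjusted p = 0.259), and Dnaaf1, a dynein arm assembly factor, with 0.32 ± 0.13 (edgeR adjusted p = 0.291). A further 19 axonemal genes tested over both sexes stand in the tables under older symbols that RefSeq now names by the rule's prefixes, and 17 of them had a higher estimate, with a median of 0.10. Some of them are also on the list of other motile cilia genes. Of 27 other transport, motor and BBSome genes, 16 had a higher estimate and 11 a lower one, with a median of 0.0079. Lztfl1, a regulator of the BBSome picked the same way, had a log2 difference of 0.17 ± 0.05 (edgeR adjusted p = 0.162). Of 32 genes for primary cilium signalling, 20 had a higher and 12 a lower estimate, with a median of 0.025. Of 11 multiciliation regulators tested, 3 had a higher and 8 a lower estimate, with a median of -0.0082. Their estimates ran from -0.11 for Rfx7 to 0.27 for Tp73.

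Genes of the cells around the ventricle are given beside these. Of the 15 ependymal genes, Dynlrb2 among them, 14 had a higher estimate in HFD-O over both sexes, and Rarres2, which encodes chemerin, passed the test with a log2 difference of 0.90 ± 0.18 (edgeR adjusted p = 0.0341). Estimates were higher in HFD-O for 29 of 30 leptomeningeal markers, 12 of 15 choroid plexus markers, 8 of 14 tanycyte markers and 9 of 9 erythroid markers. Of the 23 choroid plexus genes listed, only those 15 were tested, and 7 of the 23, Ttr among them, had a mean under 1 CPM. All 23 entered the choroid plexus level used in the fits, so that list is a weak measure of plexus tissue. Neuronal markers went the other way, with 3 of 19 higher and 16 lower (median -0.048). Of 23 hypothalamus identity genes, 8 were higher and 15 lower (median -0.068). The erythroid median was 0.97, with 8 of the 9 at an unadjusted p under 0.05, and the tanycyte median 0.0057. The leptomeningeal markers summed to 309.0 to 1066 CPM in female CON-O and 445.5 to 2127 CPM in female HFD-O. In males the groups overlapped more widely, with 354.6 to 2119 CPM in CON-O and 443.7 to 3141 CPM in HFD-O. With the mean level of the ependymal list in the fit, the axonemal median over both sexes was -0.042 and 0 members had an unadjusted p under 0.05. Without Dynlrb2 in that list the median was 0.023 and 1 member, Ift43, had one, so the sign of the median rests on that gene. With the leptomeningeal list it was 0.012 and 4 members, and with the choroid plexus list 0.087 and 3 members. The part of these cell types in the diet differences was not tested beyond those fits.

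Some counts carry a further limit. In RefSeq, 6 members overlap another protein-coding gene (Dnal1, Dnali1, Ift46, Ift74, Rsph1 and Spef2). The strand setting of the counting was not given in the sources used here. Reads of Rsph1 and Slc37a1, for example, which lie on opposite strands, may thus not be told apart. Dnali1 overlaps Gnl2 on the same strand, where no strand setting would separate reads of the shared bases. Ift74 and Spef2 also overlap a gene on their own strand.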

How the data were processed

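Hypothalamus libraries were made by the authors with a TruSeq kit and sequenced with 100-base reads, per the study's methods, which name FastQC, Trimmomatic, Bowtie2 and edgeR, while the submitters' processing notes name FastQC, TopHat, edgeR and the build rn6. How reads were assigned to genes, with which annotation and strand setting, is not given in the sources used here. Raw counts per gene came from 1 table per sex, taken as the authors deposited them. The tables also hold another block of values per library, and fold changes, p-values and dispersions of the authors, none of which was used.

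Counts were read for 24 libraries, 6 per sex and diet. Low genes were removed with filterByExpr (count of at least 10, total of at least 15), and the rest scaled by TMM (factors 0.978 to 1.019) and fitted with the quasi-likelihood test of edgeR 4.0.16 in R 4.3.3, with Benjamini-Hochberg adjustment over all genes. Each sex was fitted alone, and both together with sex, diet and their interaction. Rows named as dates (23 in the female table and 24 in the male table) kept a row name in the single-sex fits and were left out of the joint fit. Exact permutation tests used log2(CPM + 1) and the 924 assignments of 12 libraries, with 0.0022 as the smallest p, and correlations used 100000 permutations within groups. The exact permutation p-values were not adjusted for the number of genes. On simulated data for the comparison of both sexes (11604 genes), 77.4% of genes changed 1.25-fold were found, 94.4% at 1.5-fold and 98.5% at 2-fold. For females (11351 genes) these shares were 41.7%, 70.9% and 88.9%, and for males (11423 genes) 52.6%, 83.1% and 94.1%. The changed genes were drawn from all genes kept, so these shares do not give the power for the members. Counts were also simulated separately for each gene, without differences between libraries that many genes share. The shares are thus no measure of what the real libraries can show. In the real female libraries Slc6a13, at a log2 difference of 1.85 ± 0.44, did not pass (edgeR adjusted p = 0.234). Over both sexes the median SE was 0.0625 for all genes, 0.115 for axonemal members and 0.0534 for Ift members.

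Named genes were those with the highest mean level per family and the 3 smallest p-values per class and comparison, and any other is said to have been added. The members, lists and tests were chosen with earlier results of these data known. The rule was read as asking for a digit after Ift only. Foxj1 was meant as the anchor of the correlations, and Ccdc153 took its place. Alternatives were the likelihood ratio test, DESeq2 1.42.0, limma-voom (limma 3.58.1), RLE size factors, no filter, leaving out each library, and cell type scores in the fit.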

Additional observations from a re-analysis of the deposited data

Results flagged for a closer look

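Chance alone flags about 1 in 20 groups of 6, and 7 of 108 member and group pairs had a library whose gap to its nearest neighbour passed Dixon's critical value for the gap over the group's range. CON-O 11 was far from the other male CON-O libraries in 4 of the 7: Dnah1 at 10.3 CPM (next 19.2), Dnai2 at 2.26 CPM (next 3.94) and Dnali1 at 7.23 CPM (next 19.8) were low, and Ift20, which also serves the Golgi, was high at 69.6 CPM (next 58.3). CON-O 4 was the highest female CON-O library for Ift27, a Rab-like GTPase of IFT-B, at 34.3 CPM (next 25.96). CON-O 1 was the highest male CON-O library for Ift88 at 50.5 CPM (next 43.1). HFD-O 15 was the highest male HFD-O library for Spef1 at 26.4 CPM (next 23.2).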

How the results depend on the processing

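No member was called under any alternative run. Members with an unadjusted p under 0.05 in females numbered 2 as reported, 1 with DESeq2, 1 with limma-voom, 0 with the ependyma score, 0 with that score without Dynlrb2 and 1 to 3 with 1 library left out. In males they numbered 5 as reported, 1 with the choroid plexus score, 2 with the leptomeninges score, 1 with the ependyma score, 0 with that score without Dynlrb2 and 1 to 7 with 1 library left out. Over both sexes they numbered 7 as reported, 3 with the choroid plexus score, 4 with the leptomeninges score, 0 with the ependyma score and 1 with that score without Dynlrb2. For the sex difference they numbered 0 as reported and 0 to 1 with 1 library left out. With the ependyma score the axonemal median log2 difference was -0.018 in males and -0.042 over both sexes, and without Dynlrb2 0.028 and 0.023. The female count fell to 0 with the ependyma score, where Ift43 was at 0.37 and Dnai1 at 0.23, beside 0.44 and 0.25 as reported. Other estimates fell further with that score, some below 0, as these medians and the next paragraph give.

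Some log2 differences changed sign with a score in the fit, among them those of Spef2 (0.27 as reported), Dnali1 (0.20), Dnah1 (0.16) and Tekt1 (0.12). Over both sexes the choroid plexus score gave -0.030 for Rsph10b and -0.025 for Tekt2. The leptomeninges score gave -0.12 for Rsph10b, 0.012 for Spef1, -0.030 for Tekt1 and -0.073 for Tekt2, and -0.023 for Ift74 in females. The ependyma score gave -0.069 for Dnah1, -0.044 for Dnali1, -0.24 for Rsph10b, -0.11 for Spef2, -0.10 for Tekt1, -0.038 for Tekt2 and -0.048 for Ift80, and -0.010 for Ift80 in males. Without Dynlrb2 that score gave -0.16 for Rsph10b, -0.021 for Spef2, -0.053 for Tekt1 and -0.055 for Ift80, and -0.0085 for Ift80 in males. Without CON-O 11 and CON-O 12, an alternative chosen after seeing the data like the ependyma scores, Rsph10b was at -0.047 and Tekt2 at -0.053. With 1 library left out the ranges were -0.0095 to 0.11 for Rsph10b, -0.032 to 0.022 for Rsph9, -0.046 to 0.0012 for Spef1 and -0.034 to 0.068 for Tekt2. The causes were not tested.

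Members that followed Ccdc153 numbered 12 with centred levels, 15 with levels not centred, 6 without CON-O 11 and 0 without the 2 farthest libraries. The spread medians were 13.4% and 7.14% for axonemal and Ift genes with at least 50 counts, and 12.3% and 5.75% without CON-O 11. Of the promoters, 0 held the first pair of half-sites in the order searched, 9 were found by the half-site GTTGCC alone and 3 by the pair chosen later. The correlations with Foxj1 were not run. No paired analysis was possible because the library numbers are not shared between groups and the labels do not tie males to females of 1 litter. Members with few reads, such as Tekt3 with 5 to 27 per library, limit what the depth can show.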
